A study of Mus musculus with 17 samples.

Results

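The 10 genes described here are a set of bone morphogenetic protein (BMP) pathway and Id genes: Bmp4, Bmp7, Bmpr1a, Smad6, Id1, Id2, Id3, Id4, Msx1 and Msx2. They were chosen by symbol, with earlier results of these data known. Each symbol matched 1 Ensembl identifier in GENCODE M21, so the set holds 10 of the 47729 genes counted. The study asked about mouse pluripotent states between naive and primed, and measured polyadenylated RNA by stranded sequencing in 17 bulk libraries of mouse embryonic stem (ES) cells. All cultures were in N2B27, a serum-free medium, with leukaemia inhibitory factor (LIF), so every group, L2i included, carried LIF. The labels list no added BMP.

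Medium LFAI held LIF, FGF2 (12 ng/ml), Activin A (20 ng/ml) and IWP2 (2 uM), an inhibitor of WNT secretion. Medium LIM held LIF, IWP2 (2 uM) and PD325901 (0.1 uM), an inhibitor of MEK, the kinase upstream of ERK. Medium L2i held LIF, CHIR99021 (3 uM), a GSK3 inhibitor that raises WNT signalling, and PD325901 (0.1 uM). A first set of 8 libraries had 2 per group, 1 from the line R1 and 1 from the line CGR8, in 4 groups: 4 days of LFAI, 35 h of LFAI, LIM, and L2i. LIM cells had spent 4 (R1) or 6 (CGR8) passages in LIM after 5 passages in L2i, and L2i cells 10 (R1) or 8 (CGR8) passages in L2i. LFAI cells had spent 3 (R1) or 9 (CGR8) passages in L2i before 4 days of LFAI, and 9 (R1) or 7 (CGR8) passages before 35 h of it. A second set was a time course of R1 alone, with 1 library on day 0 in L2i and 1 on each of days 1 to 4 in LIM and in LFAI. Its cells had spent 5 passages in L2i on day 0, and in both media 4 on days 1 to 3 and 3 on day 4. Dishes were coated with gelatin and fetal calf serum in the time course and with gelatin and Cultrex BME2, a basement membrane extract, in the first set, and the sequencing protocol differed as well. Coating, sequencing protocol and time in LIM cannot be told apart between the sets, so values of both are given side by side and not compared.

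BMPs are secreted ligands that bind pairs of serine/threonine kinase receptors, which phosphorylate SMAD1, SMAD5 and SMAD9. These enter the nucleus with SMAD4 and bind target genes, among which the Id genes, Msx1, Msx2 and Smad6 are classic ones, and SMAD6 in turn inhibits the pathway. ID proteins have a helix-loop-helix but no DNA-binding region, and they hold back E proteins such as those of Tcf4 and Tcf12 by pairing with them. In mouse ES cells, BMP4 together with LIF can maintain self-renewal without serum, and Id genes are known as mediators of that effect.

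Promoter stretches of Smad6, Bmp4, Id4 and Id2 are printed as examples of genes of which the first 3 fell and the last rose in 4-day LFAI. Id3, which also fell, and Msx1, which also rose, are not printed. The stretches are from RefSeq promoters on GRCm38.p6, a patch of the build the files use. Of the 10 genes 8 matched, all but Id1 and Bmp7. Windows ran from 250 bases before to 20 bases after the RefSeq start, and for Id2 the print stops where an annotated exon begins. The RefSeq start of Id2 lies 1048 bases downstream of the first base of its GENCODE gene, so its stretch is inside the annotated gene. Those of Bmpr1a, Id3 and Msx2 lie 795, 325 and 294 bases downstream, so their windows are inside the annotated genes as well. Capitals mark GGCGCC, a GC-rich motif that BMP SMADs bind, or GTCTAGAC, a palindrome that SMAD proteins bind. Each motif is its own reverse complement, and they do not overlap.
Smad6, chr9:64022040-64022309, minus strand: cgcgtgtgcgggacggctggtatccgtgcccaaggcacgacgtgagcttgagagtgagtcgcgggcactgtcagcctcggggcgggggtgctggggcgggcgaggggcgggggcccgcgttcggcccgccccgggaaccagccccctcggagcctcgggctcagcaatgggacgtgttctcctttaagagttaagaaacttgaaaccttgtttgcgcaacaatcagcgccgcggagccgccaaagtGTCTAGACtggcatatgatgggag
Bmp4, chr14:46390650-46390919, minus strand: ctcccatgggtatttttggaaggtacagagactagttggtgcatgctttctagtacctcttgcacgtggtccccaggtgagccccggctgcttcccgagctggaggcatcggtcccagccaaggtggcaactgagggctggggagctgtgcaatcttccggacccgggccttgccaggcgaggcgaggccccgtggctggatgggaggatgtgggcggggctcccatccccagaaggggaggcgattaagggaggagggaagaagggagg
Id4, chr13:48260866-48261135, plus strand: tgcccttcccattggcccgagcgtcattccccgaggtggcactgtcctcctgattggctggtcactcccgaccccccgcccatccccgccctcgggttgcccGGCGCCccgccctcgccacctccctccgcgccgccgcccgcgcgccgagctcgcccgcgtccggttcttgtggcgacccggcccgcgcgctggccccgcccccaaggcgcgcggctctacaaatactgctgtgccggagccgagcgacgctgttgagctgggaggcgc
Id2, chr12:25096254-25096342, minus strand: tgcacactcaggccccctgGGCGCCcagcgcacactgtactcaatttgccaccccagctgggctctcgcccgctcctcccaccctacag
GTCTAGAC in Smad6 straddles the start, with 4 letters on each side. GGCGCC begins 148 bases before the start in Id4, 231 in Id2 and 198 in Bmpr1a, so it is in 3 of the 8 windows, against 3431 of all 32851 RefSeq promoters (10.4%) searched over the same length. GTCTAGAC is in 1 of the 8 windows, against 60 of all 32851 promoters (0.183%). The TCF/LEF motif ATCAAAG, searched on both strands, is in 0 of the 8 windows and in 1149 promoters (3.5%). These matches are letters in a window, not measured binding, and a window without one says nothing about a factor.

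The libraries held 12889029 to 22593805 gene counts each, and all 10 genes passed the filter on low counts. Levels are CPM, a gene's counts over the library total after TMM scaling, and pairs of values are R1 first, CGR8 second. Tests are two-sided quasi-likelihood tests in edgeR on all 8 libraries, with p adjusted by the Benjamini-Hochberg method over 15525 genes and a gene called at an adjusted p under 0.05. With 1 library per line and group, these p-values measure the spread between the 2 lines, not between cultures of a line. In bulk RNA, fewer cells with a transcript and less of it per cell cannot be told apart. The pluripotency genes Pou5f1, Sox2, Nanog, Zfp42, Sall4 and Utf1 were detected in every library, with a summed level of 2681 to 2695 CPM in 4-day LFAI, 3587 to 3636 CPM in 35 h LFAI, 3022 to 3239 CPM in LIM and 3698 to 4602 CPM in L2i.

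Id1 and Id2 rose in LIM. Bmp7 and Msx2 fell in 35 h LFAI. In 4-day LFAI, Bmp4, Bmp7, Smad6, Id3 and Id4 fell and Id2 and Msx1 rose. In LIM against L2i, 2 of the 10 genes rose and 0 fell in edgeR, while 11.3% of all tested genes rose and 7.81% fell. At an unadjusted p under 0.05, 5 of the 10 were higher and 0 lower, and DESeq2 called 2 and 0. In 35 h LFAI against L2i, 0 rose and 2 fell, while 7.35% of all genes rose and 7.16% fell. At an unadjusted p under 0.05, 2 were higher and 3 lower, and DESeq2 called 0 and 2. In 4-day LFAI against L2i, 2 rose and 5 fell, while 21.5% of all genes rose and 23.3% fell. The median log2 difference of the 10 genes was 0.54 in LIM, -0.20 in 35 h LFAI and -1.38 in 4-day LFAI, each against L2i, while that of all genes was 0.0055, -0.0011 and -0.0012. These 3 comparisons share the L2i libraries.

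**Figure D1:**
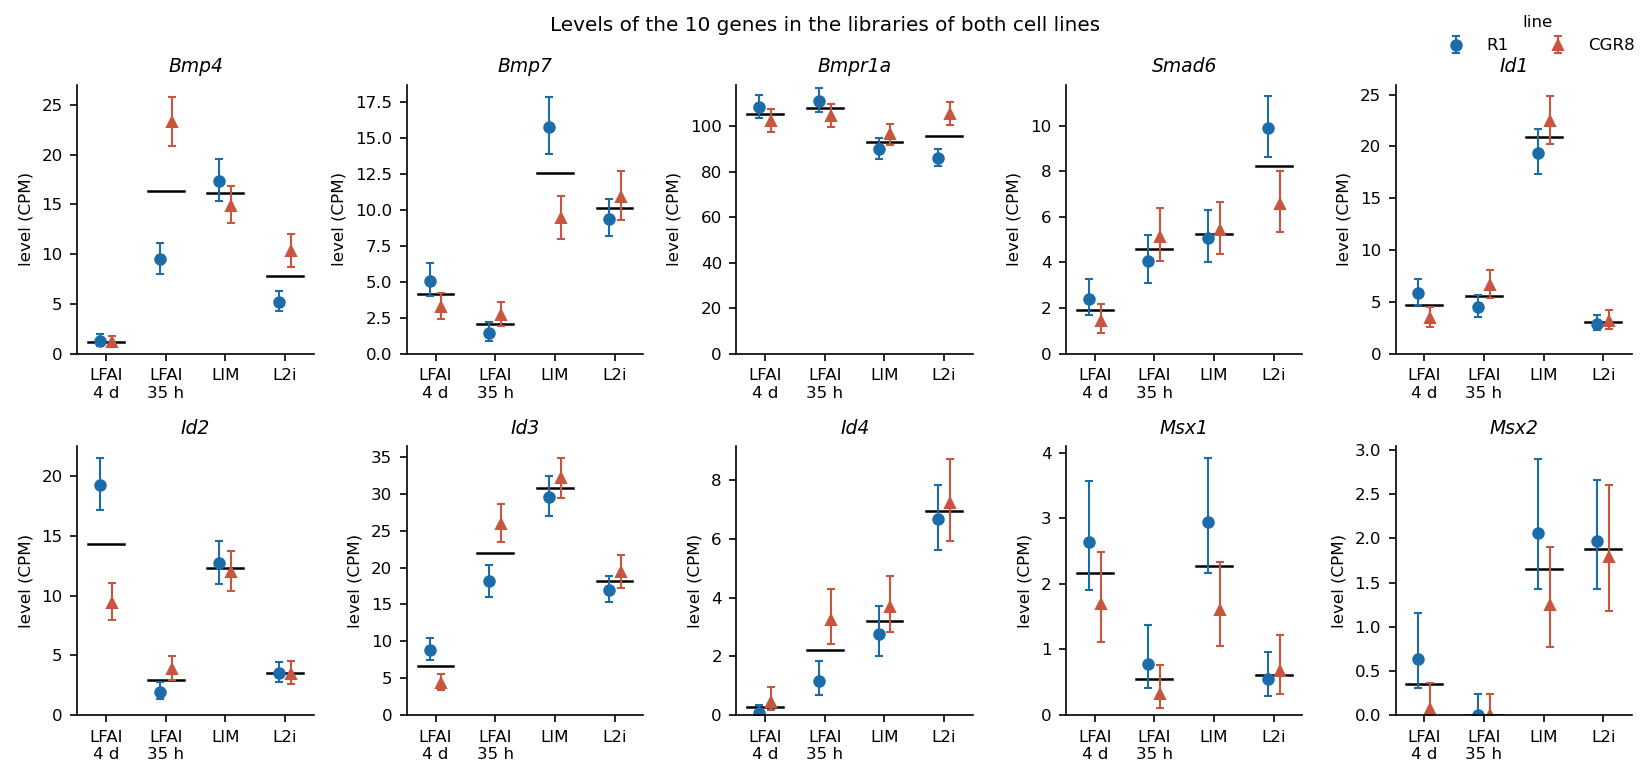
Level of each gene in CPM (linear axis from 0) in each of the 8 libraries, with 4-day LFAI, 35 h LFAI, LIM and L2i from left to right. Circles are R1, triangles CGR8, bars the 95% Poisson interval of the count, and black lines the mean of both. Id1 stood at 19.4 and 22.5 CPM in LIM and at or under 6.62 CPM elsewhere, Bmp4 and Id4 were lowest in 4-day LFAI, and Bmpr1a lay between 86.2 and 111 CPM throughout.

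Per base of exon, the order of the 10 genes changed between media. In RPKM, the CPM per kilobase of exon (group means, n = 2), 4-day LFAI had Bmpr1a at 16.6, then Id2 at 5.88, Id1 at 4.02 and Id3 at 3.68, with Id4 lowest at 0.0677. In 35 h LFAI, Bmpr1a at 17.0 was followed by Id3 at 12.3 and Bmp4 at 7.26, with Msx2 at 0. In LIM, Id1 at 18.1, Id3 at 17.2 and Bmpr1a at 14.7 led, and Id1 and Id3 did not differ beyond the spread of the lines. In L2i, Bmpr1a at 15.1 and Id3 at 10.2 led, Bmp4 at 3.45, Id1 at 2.63, Smad6 at 2.57 and Bmp7 at 2.52 lay close together, and Msx1 was lowest at 0.196. The means of the 2 Msx genes were under 1 RPKM in all 4 groups.

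Bmp4, the ligand used with LIF to keep ES cells, fell in 4-day LFAI against each of the 3 other conditions. The gene is ENSMUSG00000021835 at chr14:46383520-46390669, minus strand (GRCm38). It had 1.26 and 1.11 CPM in 4-day LFAI, 9.46 and 23.3 CPM in 35 h LFAI, 17.3 and 14.9 CPM in LIM, and 5.19 and 10.3 CPM in L2i. Both 4-day libraries were below all 6 others. The fold was 6.46 against L2i (log2 -2.69 ± 0.52 SE, adjusted p = 0.0033), 13.7 against 35 h (log2 -3.78 ± 0.53, adjusted p = 0.00086) and 13.5 against LIM (log2 -3.76 ± 0.53, adjusted p = 0.0014). All 3 calls held without any 1 library, and the log2 value against 35 h was -2.99 without CGR8 35 h LFAI. The higher Bmp4 means in 35 h LFAI (16.4 ± 9.75 CPM, SD, n = 2) and LIM (16.1 ± 1.75 CPM) than in L2i (7.74 ± 3.60 CPM) did not pass the test (adjusted p = 0.15 and 0.14). The 2 lines differed most in 35 h LFAI, where CGR8 was high and R1 lay inside the range of L2i.

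Bmp7, a ligand of another BMP subfamily, was lowest in LFAI at 35 h. The gene is ENSMUSG00000008999 at chr2:172868012-172940321, minus strand. It had 5.04 and 3.20 CPM in 4-day LFAI, 1.44 and 2.66 CPM in 35 h LFAI, 15.8 and 9.39 CPM in LIM, and 9.38 and 10.9 CPM in L2i. All 4 LFAI libraries were below all 4 others, and the LIM and L2i ranges overlapped. Bmp7 fell 4.93-fold in 35 h LFAI (log2 -2.30 ± 0.43, adjusted p = 0.009) and 2.45-fold in 4-day LFAI (log2 -1.30 ± 0.41, adjusted p = 0.029), each against L2i. Without the R1 library of 35 h LFAI the first call was lost (log2 -1.92), and the second was lost without the R1 or the CGR8 library of L2i (log2 -1.41 and -1.2) or the CGR8 library of 4-day LFAI (log2 -1.01). Between the 2 times in LFAI the difference did not pass (log2 1.01, adjusted p = 0.097).

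Bmpr1a, the type I receptor for BMP2 and BMP4, was called in none of the 6 comparisons by edgeR, and its lowest unadjusted p was 0.158. The gene is ENSMUSG00000021796 at chr14:34410734-34503341, minus strand. Its level was 109 and 102 CPM in 4-day LFAI, 111 and 105 CPM in 35 h LFAI, 90.0 and 96.4 CPM in LIM, and 86.2 and 106 CPM in L2i. The L2i range overlapped that of each other group, while the libraries of both LFAI groups were above both LIM libraries.

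Smad6, the inhibitory SMAD that BMP signalling itself induces, fell in 4-day LFAI. The gene is ENSMUSG00000036867 at chr9:63953076-64022059, minus strand. It had 2.39 and 1.44 CPM in 4-day LFAI, 4.04 and 5.13 CPM in 35 h LFAI, 5.07 and 5.41 CPM in LIM, and 9.88 and 6.57 CPM in L2i. The 4-day libraries were below all others and the L2i libraries above all others. The fall against L2i was 4.29-fold (log2 -2.10 ± 0.39, adjusted p = 0.0028). Lower Smad6 values in 35 h LFAI and in LIM than in L2i did not pass (log2 -0.85 and -0.65, adjusted p = 0.17 and 0.26).

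Id1 rose in LIM over L2i and was lower in both LFAI groups than in LIM. The gene is ENSMUSG00000042745 at chr2:152736251-152737410, plus strand. It had 5.85 and 3.46 CPM in 4-day LFAI, 4.50 and 6.62 CPM in 35 h LFAI, 19.4 and 22.5 CPM in LIM, and 2.90 and 3.19 CPM in L2i. Both LIM libraries were above all others. The rise of LIM over L2i was 6.88-fold (log2 2.78 ± 0.35, adjusted p = 0.0014). The higher Id1 values in 4-day and 35 h LFAI than in L2i did not pass (log2 0.62 and 0.87, adjusted p = 0.17 and 0.13).

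Id2 rose in both LIM and 4-day LFAI. The gene is ENSMUSG00000020644 at chr12:25093799-25097140, minus strand. It had 19.3 and 9.41 CPM in 4-day LFAI, 1.96 and 3.83 CPM in 35 h LFAI, 12.7 and 12.0 CPM in LIM, and 3.54 and 3.45 CPM in L2i. The 4-day LFAI and LIM libraries were above all 35 h LFAI and L2i libraries. Id2 rose 4.09-fold in 4-day LFAI over L2i (log2 2.03 ± 0.42, adjusted p = 0.0047), and it stood 4.94-fold above 35 h LFAI (log2 2.31 ± 0.43, adjusted p = 0.0038). Both calls held without any 1 library, at log2 1.44 and 1.70 without R1 4-day LFAI. It rose 3.53-fold in LIM over L2i (log2 1.82 ± 0.42, adjusted p = 0.018), a call lost when any 1 of the 4 LIM and L2i libraries was left out, at log2 values of 1.84 without R1 L2i, 1.80 without CGR8 L2i, 1.78 without R1 LIM and 1.86 without CGR8 LIM.

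Id3 fell in 4-day LFAI. The gene is ENSMUSG00000007872 at chr4:136143497-136145755, plus strand. It had 8.81 and 4.38 CPM in 4-day LFAI, 18.1 and 25.9 CPM in 35 h LFAI, 29.6 and 32.1 CPM in LIM, and 17.0 and 19.4 CPM in L2i. The 4-day libraries were below all others and the LIM libraries above all others. The fall was 2.75-fold against L2i (log2 -1.46 ± 0.32, adjusted p = 0.0064) and 3.33-fold against 35 h (log2 -1.74 ± 0.33, adjusted p = 0.0038). The higher value in LIM than in L2i did not pass (log2 0.76, adjusted p = 0.12).

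Id4 was highest in L2i and fell to a few counts in 4-day LFAI. The gene is ENSMUSG00000021379 at chr13:48261228-48266026, plus strand. It had 0.0629 and 0.457 CPM in 4-day LFAI, from 1 and 7 counts, then 1.17 and 3.25 CPM in 35 h LFAI, 2.75 and 3.69 CPM in LIM, and 6.67 and 7.24 CPM in L2i. The 4-day libraries were below all others and the L2i libraries above all others. The fall against L2i was 26.2-fold (log2 -4.71 ± 0.77, adjusted p = 0.0013), from 8 counts against 254. The call held without any 1 library, but the log2 value was -3.89 without R1 4-day LFAI and -6.63 without CGR8 4-day LFAI. Against 35 h it was 8.36-fold (log2 -3.06 ± 0.77, adjusted p = 0.015), lost without R1 4-day LFAI (log2 -2.25) or CGR8 35 h LFAI (log2 -2.16), and its log2 value was -4.99 without CGR8 4-day LFAI and -3.65 without R1 35 h LFAI. Id4 was lower in 35 h LFAI than in L2i without passing (log2 -1.65, adjusted p = 0.11), and with cell line as a block it passed (log2 -1.80, adjusted p = 0.037).

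The 2 Msx genes encode homeodomain transcription factors, and both were low in these cells. Msx1 is ENSMUSG00000048450 at chr5:37820485-37824583, minus strand, and Msx2 is ENSMUSG00000021469 at chr13:53466884-53473074, minus strand. Msx1 had 2.64 and 1.70 CPM in 4-day LFAI, 0.783 and 0.325 CPM in 35 h LFAI, 2.94 and 1.61 CPM in LIM, and 0.552 and 0.664 CPM in L2i. Its 4-day LFAI and LIM libraries were above all 35 h LFAI and L2i libraries. Msx1 rose 3.56-fold in 4-day LFAI over L2i (log2 1.83 ± 0.61, adjusted p = 0.038). That call was lost without R1 L2i (log2 1.69), CGR8 L2i (1.95), R1 4-day LFAI (1.49), CGR8 4-day LFAI (2.11) or R1 LIM (1.82), and with DESeq2 (adjusted p = 0.056). In LIM against L2i its log2 difference of 1.90 did not pass (adjusted p = 0.062), while with cell line as a block it did (log2 1.85, adjusted p = 0.047).

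Msx2 counts were 10 and 1 in 4-day LFAI, 0 and 0 in 35 h LFAI, 33 and 21 in LIM, and 43 and 27 in L2i. No count of it appeared in 35 h LFAI, and the 4-day libraries were below all LIM and L2i libraries. With 3 counts over the summed depth as the floor, Msx2 was at least 19.5-fold lower in 35 h LFAI than in L2i (adjusted p = 0.013). The call was lost without R1 L2i (adjusted p = 0.052) or R1 35 h LFAI (adjusted p = 0.065). The lower value in 4-day LFAI than in L2i did not pass (log2 -2.41, adjusted p = 0.053), and with cell line as a block it did (log2 -2.58, adjusted p = 0.028).

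Between the 2 times in LFAI, 3 of the 10 genes were higher at 4 days and 4 lower, while 17.7% of all genes rose and 19.0% fell. Besides Id2, Bmp4, Id3 and Id4, given above, Msx1 rose 3.89-fold (log2 1.96 ± 0.63, adjusted p = 0.038), Msx2 was at least 3.61-fold higher (adjusted p = 0.046) and Smad6 fell 2.39-fold (log2 -1.26 ± 0.39, adjusted p = 0.035). The Smad6 call was lost without CGR8 4-day LFAI (log2 -0.96), R1 35 h LFAI (-1.45) or CGR8 35 h LFAI (-1.08). The Msx1 call was lost without R1 4-day LFAI (log2 1.61), CGR8 4-day LFAI (2.22), CGR8 35 h LFAI (1.46) or R1 LIM (1.93), and with DESeq2 (adjusted p = 0.052), and the log2 value was 2.68 without R1 35 h LFAI. The Msx2 call held in 1 of the 8 fits with a library left out, the one without CGR8 4-day LFAI.

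Against LIM, 0 of the 10 genes were higher and 6 lower in 4-day LFAI, while 12.3% of all genes rose and 17.2% fell. At an unadjusted p under 0.05, 0 were higher and 7 lower, and DESeq2 called 0 and 6. The 6 were Bmp4, Bmp7, Smad6, Id1, Id3 and Id4. Id1 fell 4.49-fold (log2 -2.17 ± 0.34, adjusted p = 0.0023), Id3 4.67-fold (log2 -2.22 ± 0.33, adjusted p = 0.0017) and Id4 12.2-fold (log2 -3.61 ± 0.77, adjusted p = 0.0093). These 3 calls held without any 1 library, while Id3 was at log2 -2.81 without R1 4-day LFAI, and Id4 at -2.79 without R1 and -5.53 without CGR8 4-day LFAI. Bmp7 fell 3.05-fold (log2 -1.61 ± 0.41, adjusted p = 0.019), and missed the threshold without CGR8 4-day LFAI (log2 -1.33) or R1 LIM (-1.2). Smad6 fell 2.73-fold (log2 -1.45 ± 0.39, adjusted p = 0.025), and missed it without CGR8 4-day LFAI (log2 -1.14), R1 LIM (-1.51) or CGR8 LIM (-1.40). Msx2, at log2 -2.22, did not pass (adjusted p = 0.091), and it passed without R1 4-day LFAI (log2 -4.51).

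In 35 h LFAI against LIM, 0 of the 10 genes were higher and 4 lower, while 1.92% of all genes rose and 4.46% fell. At an unadjusted p under 0.05, 0 were higher and 5 lower, and DESeq2 called 0 and 4. Bmp7 fell 6.12-fold (log2 -2.61 ± 0.43, adjusted p = 0.013), and missed the threshold without R1 35 h LFAI (log2 -2.23) or R1 LIM (-2.18). Id1 fell 3.76-fold (log2 -1.91 ± 0.34, adjusted p = 0.016), Id2 4.26-fold (log2 -2.09 ± 0.43, adjusted p = 0.027), and Msx2 was at least 16.9-fold lower (adjusted p = 0.029). The calls of Id1, Id2 and Msx2 were each lost when any 1 of the 4 libraries of these groups was left out. Id1 then had log2 values of -1.66 without R1 35 h LFAI, -2.21 without CGR8 35 h LFAI, -2.0 without R1 LIM and -1.80 without CGR8 LIM, and Id2 had -1.68, -2.65, -2.04 and -2.13 in the same order. The 2 comparisons with LIM share its libraries.

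**Figure D2:**
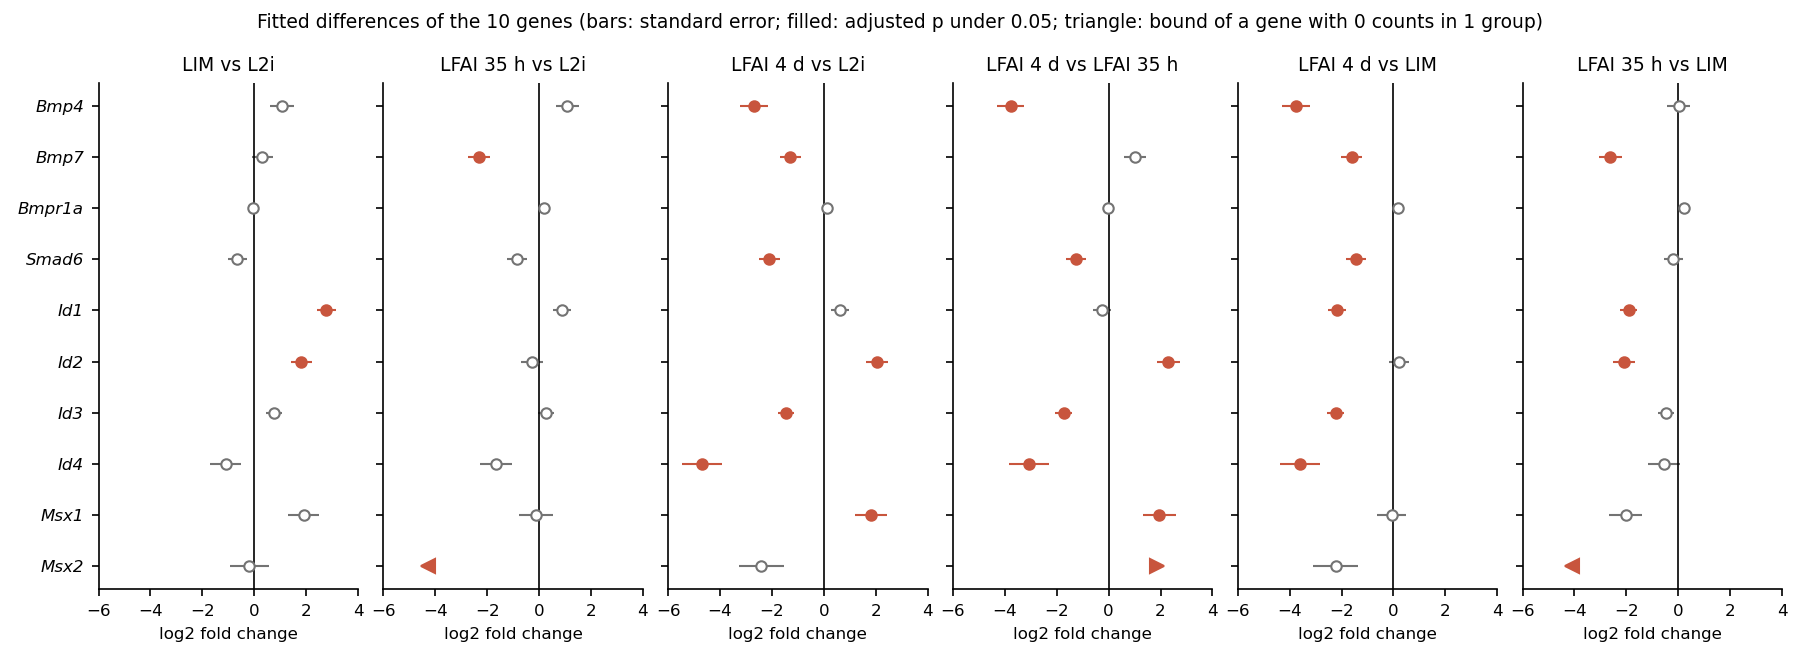
Fitted log2 fold change of each gene in the 6 comparisons of the 8 libraries, first-named group over second. Bars are the standard error, filled symbols have an adjusted p under 0.05, and triangles are Msx2 with a floor of 3 counts where 1 group has 0. Bmp4, Id3, Id4 and Smad6 lie left of 0 and are filled in all 3 comparisons of 4-day LFAI, and Bmpr1a is open in all 6.

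Other pathway genes were taken from a list of 50 further genes by role, of which 34 passed the filter. In LIM against L2i, 7 of the 34 rose and 2 fell (median log2 0.18), while 11.3% of all genes rose and 7.81% fell. Among the 7 tested extracellular antagonists, which bind BMPs outside the cell, 5 rose: Chrd, Chrdl1, Grem1, Twsg1 and Nbl1. Of the 5, Chrdl1, Grem1 and Nbl1 were low, at 40, 67 and 43 counts in LIM against 2, 0 and 1 in L2i. Each of these 5 calls was lost without R1 L2i, and again without R1 LIM. Without R1 L2i the adjusted p was 0.11 for Chrdl1, 0.064 for Grem1, 0.16 for Twsg1 and 0.1 for Nbl1, and without R1 LIM it was 0.14, 0.081, 0.16 and 0.073. Chrdl1 also lost its call without R1 4-day LFAI (adjusted p = 0.05) and Twsg1 without CGR8 L2i (0.061). Chrd, which encodes chordin, had 5.88 and 4.64 CPM in LIM and 2.25 and 1.66 CPM in L2i, a 2.67-fold rise (adjusted p = 0.02) that was lost without R1 L2i (log2 1.66), CGR8 L2i (1.22) or R1 LIM (1.24). Smad7, an inhibitory SMAD that acts on the BMP and the Activin branches, had 7.14 and 14.5 CPM in LIM against 42.4 and 43.3 CPM in L2i, a 3.96-fold fall (log2 -1.99 ± 0.29, adjusted p = 0.0025). Bmpr1b, a type I receptor closely related to Bmpr1a, rose to 45 counts in LIM against 2 in L2i (ratio of levels 25.3, 95% counting interval 6.60 to 215, adjusted p = 0.0051). Smad7 and Bmpr1b kept their calls without any 1 library, with Smad7 at log2 -2.58 without CGR8 LIM and Bmpr1b at 3.79 without CGR8 L2i. Without R1 L2i, L2i held 0 counts of Bmpr1b. Among the 4 coreceptors, Tgfbr3 was the only gene that fell in LIM, with a mean of 7.74 CPM there and 21.0 CPM in L2i. In edgeR its adjusted p was 0.019, at a log2 difference of -1.44. Tgfbr3 missed the threshold in the fits that left out CGR8 L2i (log2 -1.12), R1 LIM (-1.6) or CGR8 LIM (-1.29).

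In 35 h LFAI against L2i, 1 of the 34 genes rose and 5 fell (median log2 0.059), while 7.35% of all genes rose and 7.16% fell. Chrd rose 6.33-fold, with 12.1 and 12.9 CPM in 35 h LFAI against 2.25 and 1.66 CPM in L2i (log2 2.66 ± 0.34, adjusted p = 0.0018). Of the 4 coreceptors, 2 fell. Rgma had 6.26 and 10.0 CPM in 35 h LFAI against 34.2 and 35.9 CPM in L2i, a 4.30-fold fall (log2 -2.11 ± 0.35, adjusted p = 0.0053). Tgfbr3, which encodes betaglycan, had 0.913 and 1.36 CPM against 16.8 and 25.2 CPM, an 18.3-fold fall (log2 -4.20 ± 0.40, adjusted p = 0.00049). All 3 calls were kept without any 1 library.

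In 4-day LFAI against L2i, 7 of the 34 genes rose and 7 fell (median log2 0.22), shares close to the 21.5% of all genes that rose and the 23.3% that fell. Of the 7 tested extracellular antagonists, 3 rose, all among the 5 that rose in LIM: Chrd, Chrdl1 and Nbl1. They had 153, 36 and 31 counts, against 74, 2 and 1 in L2i. Each of these calls was lost without R1 4-day LFAI (log2 1.07, 3.94 and 3.5), and also without 1 L2i library. Of the 4 coreceptors, 3 fell: Rgma to 1.196 and 2.35 CPM, against 34.2 and 35.9 CPM in L2i (19.7-fold, adjusted p = 6.9e-05), Tgfbr3 to 1.70 and 1.11 CPM, against 16.8 and 25.2 CPM (14.9-fold, adjusted p = 0.0001), and Eng. Eng, which encodes endoglin, had 19.1 and 15.4 CPM in 4-day LFAI, 76.9 and 90.5 CPM in 35 h LFAI, 68.0 and 61.8 CPM in LIM, and 74.6 and 88.1 CPM in L2i, a 4.71-fold fall against L2i (log2 -2.24 ± 0.18, adjusted p = 3.3e-05). Bmpr1b rose to 185 counts, against 2 in L2i (ratio of levels 109, counting interval 29.8 to 908, adjusted p = 0.0002). Those 4 calls were kept without any 1 library. Without R1 L2i no Bmpr1b count remained in L2i, and without CGR8 L2i its log2 value was 5.89. Of the 4 SMADs that carry the signal, Smad9 fell and the other 3 were not called. Smad9 had 1 and 1 counts in 4-day LFAI against 28 and 95 in L2i (ratio of levels 0.0192, counting interval 0.0023 to 0.0708, adjusted p = 0.0072). This call was lost without R1 (adjusted p = 0.051) or CGR8 4-day LFAI (0.054), and the log2 value of -5.72 was -6.47 without R1 L2i and -4.19 without CGR8 L2i. In LIM and in 35 h LFAI against L2i, Smad9 did not pass (adjusted p = 0.29 and 0.24).

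Between the 2 times in LFAI, 6 of the 34 genes were higher and 4 lower at 4 days, while 17.7% of all genes were higher and 19.0% lower. Against LIM, 4 were higher and 10 lower in 4-day LFAI, while 12.3% and 17.2% of all genes were. For 35 h LFAI against LIM, 1 was higher and 6 lower, while 1.92% and 4.46% of all genes were. Smad7 was the gene higher in 35 h LFAI, with 58.2 and 73.7 CPM against 7.14 and 14.5 CPM in LIM (6.10-fold, log2 2.61 ± 0.30, adjusted p = 0.0035). It was also higher in 4-day LFAI, with 48.3 and 50.2 CPM (4.55-fold over LIM, log2 2.19 ± 0.29, adjusted p = 0.0011). Both calls were kept without any 1 library, at log2 3.21 and 2.78 without CGR8 LIM. Of the 3 E protein genes, whose products pair with ID proteins, 2 were called in at least 1 comparison, in opposite directions. Tcf4 averaged 33.6 CPM in 4-day LFAI and 69.1 CPM in L2i, a 2.05-fold fall (adjusted p = 0.012) that was lost without CGR8 L2i (log2 -0.62), R1 4-day LFAI (-1.01) or CGR8 4-day LFAI (-1.06). It also fell 2.23-fold against 35 h LFAI (adjusted p = 0.0097), lost without R1 4-day LFAI (log2 -1.14), CGR8 4-day LFAI (-1.19) or CGR8 35 h LFAI (-0.86). Tcf12 had 121 and 114 CPM in 4-day LFAI, 74.1 and 64.6 CPM in 35 h LFAI, 75.2 and 45.7 CPM in LIM, and 86.0 and 84.5 CPM in L2i. Its 4-day libraries were above all others. It rose 1.69-fold in 4-day over 35 h LFAI (adjusted p = 0.023), a call lost without any 1 of those 4 libraries, at log2 values of 0.72 without R1 4-day LFAI, 0.78 without CGR8 4-day LFAI, 0.83 without R1 35 h LFAI and 0.66 without CGR8 35 h LFAI. Over LIM it rose 1.94-fold (adjusted p = 0.011), lost without R1 or CGR8 4-day LFAI (adjusted p = 0.052 in each). Against L2i it did not pass (adjusted p = 0.11).

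**Figure D3:**
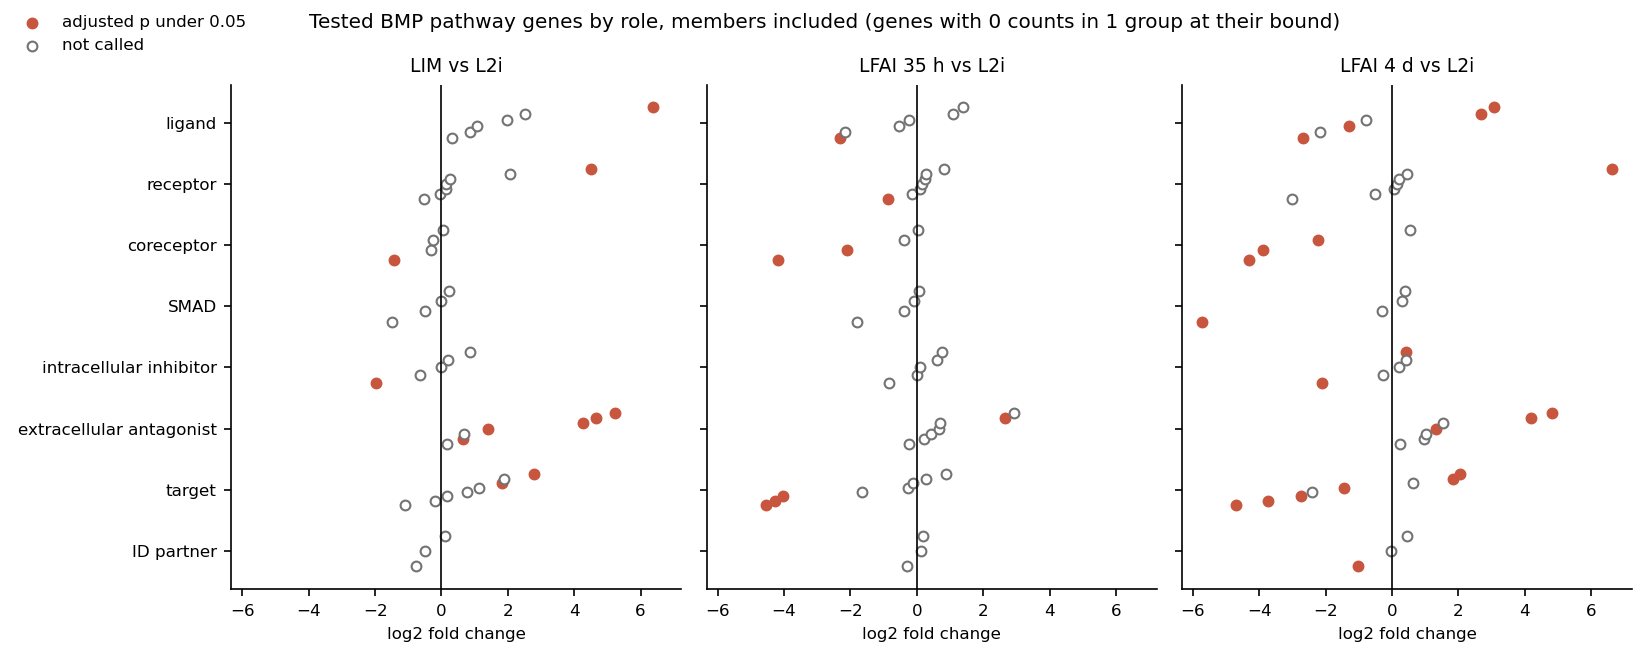
Log2 fold change against L2i of the tested BMP pathway genes, the 10 members included, in rows by role, for LIM, 35 h LFAI and 4-day LFAI. Each point is 1 gene, filled where the adjusted p is under 0.05, and genes with 0 counts in 1 group are drawn with a floor of 3 counts. Among antagonists 5 points are filled on the right in LIM and 3 in 4-day LFAI. Among coreceptors 1 is filled on the left in LIM, 2 in 35 h LFAI and 3 in 4-day LFAI.

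Markers of pluripotency and of other cell types moved in the same libraries. Of the 6 pluripotency genes, 1 rose and 4 fell in 4-day LFAI against L2i. The trophoblast list (7 genes, 6 tested) had 4 genes that rose and 2 that fell in LIM against L2i, and summed to 126 to 376 CPM in 4-day LFAI, 26.7 to 30.9 CPM in 35 h LFAI, 118 to 165 CPM in LIM and 115 to 119 CPM in L2i. In 4-day LFAI the sum was mostly Krt8 (204 and 50.8 CPM) and Krt18 (156 and 68 CPM). In L2i it was mostly Tfap2c, at 97.7 and 99.9 CPM there and 1.2 and 0.523 CPM in 4-day LFAI. The defining trophoblast gene Cdx2 was at 0 in all LFAI libraries of this set, and Hand1 was at 0 in L2i. In 4-day LFAI against L2i, 3 trophoblast genes rose and 2 fell, 3 of 4 tested fibroblast genes rose, and 1 neural gene of 4 rose and 2 fell. The primitive endoderm list summed to 4.84 to 7.99, 2.94 to 4.22, 13.7 to 18.0 and 4.05 to 4.60 CPM in the same order of groups, with Gata4 at 7.01 and 5.05 CPM in LIM. In LIM against L2i, 1 of its 5 tested genes rose and 0 fell. Gata6 was at 0.0626 and 0.178 CPM in LIM and at 0.230 and 0.199 CPM in L2i. Sox17 was at 0.0626 and 0.178 CPM in LIM and at 0.184 and 0.199 CPM in L2i. The neural list, mostly Nes, summed to 367 to 580, 43.0 to 50.5, 126 to 194 and 37.1 to 54.5 CPM, with Olig3 at 0 in 4-day LFAI. The fibroblast list summed to 33.9 to 41.2, 9.59 to 11.0, 19.2 to 29.4 and 3.92 to 4.09 CPM, with Postn at 0 in 4-day LFAI, and the mesoderm list to 1.70 to 1.76, 1.63 to 1.82, 4.58 to 5.38 and 8.14 to 12.0 CPM. Their part in the differences of the BMP and Id genes was not tested.

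The R1 time courses had 1 library per point, so they carry no test. Ratios come with 95% exact intervals that cover counting error only, and a gene is counted as past 2-fold on the scale of log2 CPM with a prior count of 2. All comparisons with day 0 share 1 library, whose cells had more passages in L2i than those of the later days.

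In LIM, Id1, Id3 and Bmp4 were lower on each of days 1 to 4 than on day 0. Id1 had 3.00 CPM on day 0, then 1.27, 0.751, 1.15 and 0.529 CPM on days 1 to 4, so day 4 stood 5.66-fold below day 0 (interval 2.52 to 15.0). In the first set, where coating, sequencing protocol and time in medium were different, Id1 was at 19.4 and 22.5 CPM in LIM and at 2.90 and 3.19 CPM in L2i. Id3 had 10.7 CPM on day 0 and 2.22, 1.35, 3.21 and 2.65 CPM on days 1 to 4. Bmp4 had 10.4 CPM on day 0 and 3.33, 3.08, 4.05 and 3.48 CPM on days 1 to 4. Id2 had 2.12 CPM on day 0 and 4.36, 3.61, 3.82 and 4.38 CPM, higher on each day.

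Of the 10 genes, 4, 3, 5 and 5 were more than 2-fold lower on LIM days 1 to 4 than on day 0, and 0 higher on any day. Among all genes 4.47%, 5.04%, 7.15% and 7.22% were lower and 5.34%, 6.73%, 7.28% and 8.17% higher on those days. Id1, Id3 and Bmp4 were among the lower genes on all 4 days. Bmp7 went with them on days 3 and 4, at 7.80 and 8.31 CPM against 18.3 CPM on day 0. Smad6 had 7.89 CPM on day 0 and 8.87, 9.99, 14.8 and 9.60 CPM in LIM, and Id4 had 4.75 CPM on day 0 and 4.12, 6.08, 5.12 and 4.99 CPM, so neither was past 2-fold.

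In LFAI, none of the 10 genes was past 2-fold from LIM on day 1, while Id1, Id3, Bmp4, Id4, Bmp7, Smad6 and Msx2 were on day 2. On day 1 the interval of the ratio to LIM left out 1 for Bmp7 (ratio 0.706, interval 0.564 to 0.883) and Bmpr1a (1.11, 1.03 to 1.2). On LFAI days 1 to 4, 0, 0, 1 and 1 of the 10 genes were more than 2-fold higher and 4, 6, 5 and 5 lower than on day 0. Among all genes 4.65%, 10.6%, 14.4% and 16.3% were higher and 3.88%, 10.8%, 13.0% and 13.4% lower. Id2 was the higher gene, at 5.70 and 6.22 CPM on days 3 and 4 against 2.12 CPM on day 0. Id4 had 4.69, 0.850, 0.216 (3 counts) and 0.859 CPM on days 1 to 4, against 4.75 CPM on day 0, and stood 5.53-fold below day 0 on day 4 (interval 2.96 to 11.3). Bmp7 had 10.4, 1.16, 0.722 and 3.29 CPM, lowest on day 3. Smad6 had 8.72, 3.40, 4.91 and 6.30 CPM on days 1 to 4, against 7.89 CPM on day 0. On day 4 the interval of its ratio to day 0 took in 1 (ratio 0.798, interval 0.595 to 1.07).

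Bmp4 in LFAI had 3.88, 12.1, 2.67 and 2.72 CPM on days 1 to 4, against 10.4 CPM on day 0. The interval of the ratio to day 0 took in 1 on day 2 only (ratio 1.17, interval 0.926 to 1.48), and this is 1 library. Id1 had 0.953, 5.72, 3.18 and 4.79 CPM, above its day 0 level of 3.00 CPM on days 2 and 4 (ratios 1.91, interval 1.29 to 2.87, and 1.60, interval 1.07 to 2.42). Id3 had 2.86, 3.94, 1.01 and 3.72 CPM, below its day 0 level of 10.7 CPM on each day. Msx2 had 2 counts on day 2 and 1 on day 3 in LFAI, and Msx1 had 0.513, 0.464, 1.88 and 1.79 CPM on days 1 to 4 against 1.54 CPM on day 0.

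**Figure D4:**
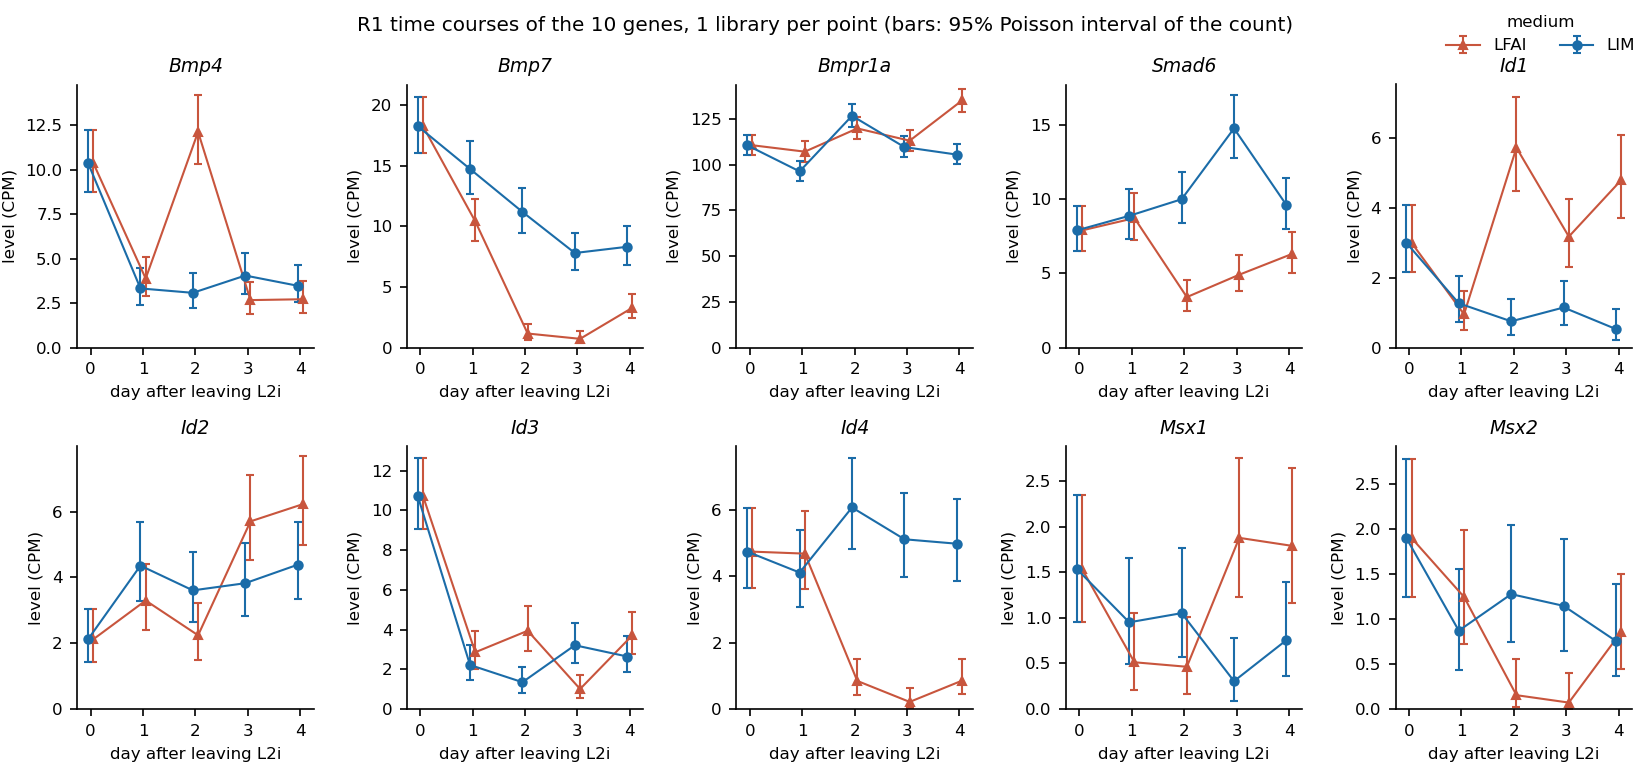
Level of each gene in CPM (linear axis from 0) by day in R1, for LFAI (triangles) and LIM (circles), both from the same day 0 library in L2i. Bars are the 95% Poisson interval of the count, and each point is 1 library. In LFAI, Id1 and Bmp4 stand above LIM on day 2, at 5.72 and 12.1 CPM, while Id4, Bmp7 and Smad6 stand below it.

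Set against LIM on the same day, 0 of the 10 genes were past 2-fold in LFAI on day 1, while 1.77% of all genes were higher and 2.07% lower. On day 2, 3 were higher and 4 lower, while 8.36% of all genes were higher and 10.5% lower. Id1 was 7.61-fold higher (interval 3.92 to 16.5), Bmp4 3.94-fold (2.78 to 5.70) and Id3 2.92-fold (1.67 to 5.30). Bmp7 was 9.66-fold lower (5.67 to 17.7), Id4 7.16-fold (3.80 to 14.9) and Smad6 2.94-fold (2.08 to 4.23), and Msx2 had 2 counts in LFAI. On day 3, 2 were higher and 5 lower, while 13.6% and 11.9% of all genes were.

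On day 4, 2 of the 10 genes were higher in LFAI than in LIM and 2 lower, while 14.6% and 12.4% of all genes were. Id1 was 9.06-fold higher (interval 4.16 to 23.4) and Msx1 2.37-fold (1.098 to 5.52). Id4 was 5.81-fold lower (3.11 to 11.8) and Bmp7 2.53-fold lower (1.78 to 3.65). Bmpr1a, at 135 CPM in LFAI and 105.5 CPM in LIM, was 1.28-fold higher (1.19 to 1.37), short of 2-fold. Bmp4 was at 2.72 CPM in LFAI and 3.48 CPM in LIM on that day. The 4-day LFAI cultures of the first set, on the other coating, had 1.26 and 1.11 CPM of it.

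Among the other pathway genes, Smad7 was at 30.1, 70.9, 69.6 and 68.3 CPM on LFAI days 1 to 4 and at 33.6, 30.0, 24.6 and 27.0 CPM on LIM days 1 to 4, against 43.3 CPM on day 0. Rgma was at 8.13, 3.71, 2.24 and 3.79 CPM in LFAI and 7.60, 6.16, 8.87 and 8.84 CPM in LIM, against 12.1 CPM on day 0. Tgfbr3 was at 9.38, 1.70, 3.25 and 5.37 CPM in LFAI and 10.3, 11.2, 8.18 and 6.88 CPM in LIM, against 19.7 CPM. Bmpr1b reached 51 counts on LFAI day 4 and 17 on LIM day 4, from 2 on day 0. From day 2 on, Smad7 was above its day 0 level in LFAI and below it in LIM.

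For Id1 and Bmp4, the genes of most like pattern were ranked among 10204 genes by the smaller of 2 Pearson correlations of log2 CPM, over the 8 libraries of the first set and the 9 of the time course. For Id1 they were Anpep (0.86 and 0.92), Peg10 (0.85 and 0.87), Thsd1 (0.83 and 0.91), Bms1 (0.80 and 0.91) and Kif24 (0.79 and 0.79). For Bmp4 they were Ddx58 (0.96 and 0.91), Asxl2 (0.87 and 0.92), Mlh3 (0.86 and 0.90), Ints4 (0.88 and 0.84) and Zfp280b (0.84 and 0.97). These values describe the libraries. Each point is 1 library, whose depth all its genes share, and the genes were picked as the highest of many.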

How the data were processed

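RNA was sequenced on a HiSeq2500 after a TruSeq Stranded mRNA preparation, per the labels' protocols. The deposited files hold raw read counts per Ensembl gene for 17 libraries. HISAT2 2.0.4, HTSeq 0.6.1, DESeq2 1.10.1 and GRCm38/mm10 are named in the submitters' processing notes, while the strand setting and annotation release are not given in the sources used here. The 5 summary entries of each file were left out of library sizes. Together they held 47.7 to 51.9% of a library's reads, and the entry for alignments that were not unique held 36.2 to 45.2%. Antisense genes overlap Id4, Bmp4 and Bmpr1a, with 2 counts (A330033J07Rik), 5 and 23 (Gm15217, Gm15222) and 3 (Gm17110) in all libraries, against 857, 1944 and 26845 counts of the 3 genes.

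Symbols and positions came from GENCODE M21, which matched 47310 of 47729 identifiers. The 8 libraries of both lines were tested on the deposited counts with edgeR 4.0.16 in R 4.3.3 (filterByExpr, TMM with factors 0.964 to 1.033, group means, quasi-likelihood test with 4 residual degrees of freedom, Benjamini-Hochberg over 15525 genes). SE is the log2 fold change over the root of F. RPKM used the summed length of all exons of a gene. The time course was scaled apart (15682 genes at 1 CPM or more in 1 library, factors 0.969 to 1.049) and given Poisson and binomial intervals at 95%. Alternatives were DESeq2 size factors, no filter, DESeq2 1.42.0, cell line as a block and leaving out each library, and in the time course another scaling, plain CPM and a prior count of 0.5. Same-numbered libraries are of the same cell line, so the numbers pair them. The deviations of the lines from the group means correlated at 0.041 to 0.395 between groups. The fit was tested on simulated data. All 10 members are named. Values are given for other pathway genes only if called in at least 1 comparison, as well as for the 5 genes most like Id1 and like Bmp4 at a mean of 5 CPM or more. Members, lists and tests were chosen with earlier results of these data known. Python 3.11.15, pandas 2.3.3, NumPy 2.4.6, SciPy 1.17.1 and matplotlib 3.10.9 were used.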

Additional observations from a re-analysis of the deposited data

Results flagged for a closer look

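Id2 in 4-day LFAI against LIM went in opposite directions in the 2 lines. Its log2 difference was 0.60 in R1 (95% counting interval of the ratio 1.27 to 1.82) and -0.35 in CGR8 (0.628 to 0.975). Bmp4 in 35 h LFAI against LIM did so as well, with a log2 difference of -0.87 in R1 (interval of the ratio 0.443 to 0.669) and 0.65 in CGR8 (1.33 to 1.85). These were 2 of 60 pairs of gene and comparison in which both lines' intervals left out 1 on opposite sides. The difference between the lines was not tested, since each line has 1 library per group, and the intervals cover counting error only.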

How the results depend on the processing

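With cell line as a block, Msx1 in LIM, Id4 in 35 h LFAI and Msx2 in 4-day LFAI, each against L2i, passed the test, and the pairing changed no other call of the 10 genes. It lost no call of the other pathway genes, while calls that it may have added among them were not checked. The block turned the sign of Bmp4 in 35 h LFAI against LIM (log2 -0.11). Without the filter on low counts, 5 of the 10 genes were higher in LIM than in L2i, 1 was higher in 35 h LFAI than in L2i, and in 35 h LFAI against LIM 12 other pathway genes were called. By DESeq2, 1 was higher in 4-day LFAI than in L2i. For 35 h LFAI against LIM, all genes gave 746 higher and 1459 lower without the filter, 636 and 1074 by DESeq2, and 494 higher with the block. On LIM day 4, a prior count of 0.5 or DESeq2 size factors put 1 gene past 2-fold higher. The cause of these shifts was not tested. Leaving out 1 library left a group with 1, assumed to vary like the others. Members higher and lower, other pathway genes called, and all genes higher and lower then ranged as follows. In LIM against L2i there were 1 to 2 higher members, 3 to 9 pathway genes, and 934 to 1690 and 505 to 1131 genes. In 35 h LFAI against L2i there were 0 to 2 lower members, 3 to 7 pathway genes, and 507 to 1132 and 369 to 1040 genes. In 4-day LFAI against L2i there were 1 to 2 and 4 to 6 members, 6 to 15 pathway genes, and 2395 to 3332 and 2495 to 3640 genes. In 4-day against 35 h LFAI there were 1 to 2 and 2 to 4 members, 3 to 11 pathway genes, and 1440 to 2668 and 1879 to 3090 genes. In 4-day LFAI against LIM there were 4 to 7 lower members, 5 to 15 pathway genes, and 735 to 1810 and 1358 to 2650 genes. In 35 h LFAI against LIM there were 0 to 4 lower members, 2 to 9 pathway genes, and 64 to 319 and 146 to 693 genes. Signs turned, none of them called, in LIM against L2i for Bmp7 (log2 -0.10 to 0.64), Msx2 (-0.59 to 0.14) and Bmpr1a (-0.18 to 0.11), in 35 h LFAI against L2i for Id2 (-0.83 to 0.14) and Msx1 (-0.88 to 0.38), and in 4-day LFAI against L2i for Bmpr1a (-0.014 to 0.28). They also turned in 4-day against 35 h LFAI for Id1 (-0.68 to 0.053), in 4-day LFAI against LIM for Id2 (-0.39 to 0.63) and Msx1 (-0.44 to 0.42), and in 35 h LFAI against LIM for Id4 (-1.45 to 0.016) and Bmp4 (-0.76 to 0.53). The low counts of Msx1, Msx2 and of Id4 in 4-day LFAI limit their folds.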
